A study of Mus musculus with 6 samples.

Results

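RNA levels of 9 genes of the JAK-STAT pathway were described, 6 transcription factors of the STAT family (*Stat2*, *Stat3*, *Stat4*, *Stat5a*, *Stat5b* and *Stat6*) and 3 Janus kinases (*Jak1*, *Jak2* and *Tyk2*), out of 55335 genes in the deposited table. They were chosen by gene symbol, and each symbol gave 1 row. The cells were mouse bone marrow-derived macrophages (BMDMs), grown for 7 days with 25 ng/ml macrophage colony-stimulating factor from *Cd177* WT mice in both groups. For 24 h they shared a culture with neutrophils that had been pulled by MACS from spinal cord lesions at 3 days post injury (dpi), either from *Cd177* WT mice (3 libraries labelled WT) or from *Cd177* KO mice, which lack the neutrophil surface receptor CD177 (3 libraries labelled KO). The macrophages were then recovered by FACS, with a gate that is not given in the sources used here, and their RNA was sequenced. The mice were male and adult. The group design asks how macrophages differ when the neutrophils beside them lack *Cd177*. There was no library of BMDMs cultured alone, so both groups had met lesion neutrophils.

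Cytokine receptors that have no enzyme of their own rely on Janus kinases bound to their tails. When a cytokine brings the receptor chains together, the kinases phosphorylate the chains and the STAT proteins docked there, which pair, enter the nucleus and switch on genes. Macrophages use this route to read interferons, interleukins and growth factors, and most of the control lies in phosphorylation, which RNA levels do not measure.

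The values are FPKM, in which the fragments of a gene are divided by its transcript length and by the library's total, so levels of different genes can be set side by side within a library. The column sums ran from 302532 to 340717 FPKM, and the spacing of low values implied 17800000 to 20400000 fragments per library. Of 10 macrophage genes, all tested, 3 rose and 2 fell in the libraries labelled KO. *Cd68* (456 to 587 FPKM) and *Csf1r* (232 to 293 FPKM) did not pass the test, *Cd14* (-3.33 on the log2 scale) and *Fcgr1* (-1.83) fell, and *Adgre1* (0.30), *Mertk* (0.72) and *C1qa* (0.76) rose. The call of *Adgre1* held in 1 of 6 fits with a library left out and was lost with median-of-ratios scaling (0.09, adjusted p = 0.516). *Mertk* kept its call in 4 of 6 such fits and lost it with that scaling (adjusted p = 0.0532). RNA of neutrophil marker genes moved with the groups. Of 16 listed genes 13 were tested, 11 rose and 1 fell in the libraries labelled KO. Over all tested genes 27.1% rose and 10.5% fell. *Cd177*, *Cxcr2* and *Padi4* passed the filter at a mean of 0.5 FPKM only through the KO libraries, so their rises are descriptions. The summed level of the 16 genes was 202 to 262 FPKM in WT and 559 to 573 FPKM in KO. *Cd177* itself was at 0.544, 0.309 and 0.521 FPKM in WT replicates 1, 2 and 3 and at 1.79, 1.84 and 2.28 FPKM in KO replicates 1, 2 and 3, which goes against the labels of the neutrophils, although the macrophages of both groups carry the gene. All directions below are therefore those of the libraries as labelled. B lineage genes summed to 1.41 to 2.51 FPKM in WT and 14.9 to 17.1 FPKM in KO, with *Pax5* at no more than 0.0166 FPKM, and T and NK cell genes to 2.20 to 2.59 FPKM in WT and 5.84 to 7.74 FPKM in KO, most of it *Cd4*, the only tested gene of that list, with *Cd3d* at 0 everywhere. Dendritic cell genes summed to at most 1.24 FPKM and spinal cord genes to 4.60 to 7.06 FPKM. Mitochondrial genes took 4.57% to 5.73% of the FPKM in WT and 6.57% to 7.28% in KO. WT replicate 3 correlated least with the other libraries of its group (r = 0.971 and 0.967 across genes, against 0.985 between WT replicates 1 and 2). The part of these differences in the results was not tested.

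Promoter sequences of all 9 genes were found in the RefSeq table for GRCm38.p6, as windows of 300 bases that run from 250 before to 50 after the start of transcription. The core of the interferon-stimulated response element, the DNA word read by the complex of STAT2 and its partner IRF9 (letters GAAANNGAA on either strand), occurred in windows of 2 members, *Stat2* and *Stat4*, and in 8.56% of 32851 promoter windows in the table. The gamma-activated site, the word read by paired STAT proteins (letters TTCNNNGAA), occurred in none of the members' windows and in 8.30% of all windows. Both windows with a match are printed below on the gene's own strand, since these genes showed the largest differences between the groups in either direction, with the matched letters in capitals. The *Stat2* window is chr10:128270248-128270547 (+ strand) and its match, on the minus strand, begins at position -221 from the start. The *Stat4* window is the later of its 2 annotated starts, chr1:52007990-52008289 (+ strand), with a match that begins at position -97 from that start.
Stat2: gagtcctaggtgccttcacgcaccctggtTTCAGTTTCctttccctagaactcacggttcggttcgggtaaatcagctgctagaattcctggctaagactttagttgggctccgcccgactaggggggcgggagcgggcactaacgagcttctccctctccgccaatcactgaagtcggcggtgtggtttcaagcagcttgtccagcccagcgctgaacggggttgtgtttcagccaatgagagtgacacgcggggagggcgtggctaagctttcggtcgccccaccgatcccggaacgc
Stat4, later start: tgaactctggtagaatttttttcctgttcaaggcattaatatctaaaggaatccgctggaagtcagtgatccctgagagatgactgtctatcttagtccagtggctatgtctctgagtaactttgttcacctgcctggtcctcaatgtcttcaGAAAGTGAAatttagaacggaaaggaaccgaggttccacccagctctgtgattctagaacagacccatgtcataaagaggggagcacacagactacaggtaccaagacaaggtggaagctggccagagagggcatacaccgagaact
A match of letters is a description and shows no binding.

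Between the groups, 5 of the 9 members were higher in the libraries labelled KO (*Stat4*, *Stat5b*, *Jak1*, *Stat5a* and *Stat6*), 2 were lower (*Stat2* and *Jak2*) and 2 did not pass the test (*Stat3* and *Tyk2*), at an adjusted p under 0.05 in limma over 13367 genes. Over all tested genes 27.1% were called higher and 10.5% lower. Values of WT and KO libraries did not overlap in 7 of the 9 members, as in 51.9% of all tested genes. *Stat4* passed the filter on low values only through the KO libraries and so had to differ, and without it 4 of 8 members were higher. FPKM values as deposited carry a general shift, since the median gene stood 0.19 higher in KO on the log2 scale. With median-of-ratios scaling, which brings that median to 0, 2 members were higher (*Stat4* and *Stat5b*) and 3 lower (*Stat2*, *Jak2* and *Stat3*). In bulk RNA, fewer cells of a type and less RNA per cell cannot be told apart.

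**Figure D1:**
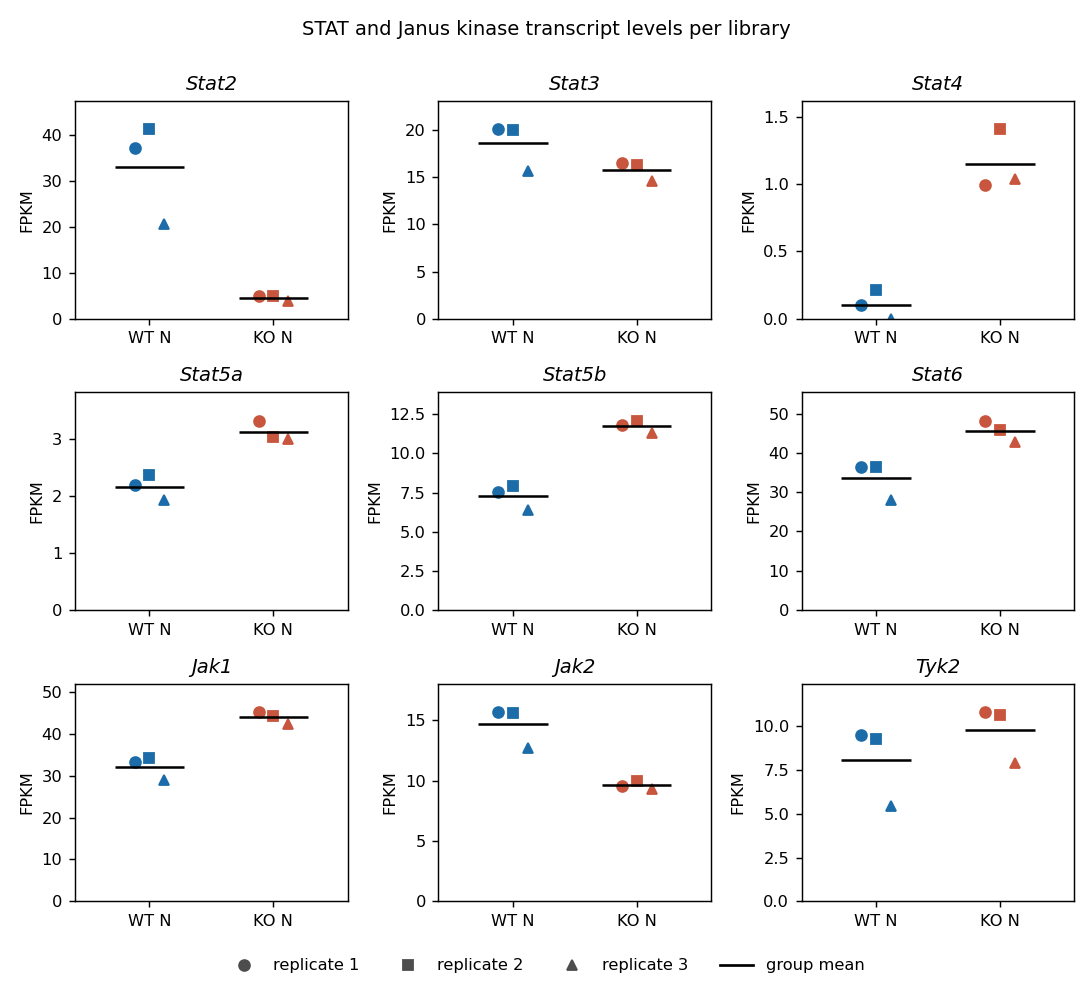
FPKM of each of the 9 members on a linear axis from 0, by group of neutrophil (WT N, KO N), with a point per library and a bar at the mean of 3 libraries. *Stat2* lay at 20.6 FPKM or above in every WT library and at 5.01 FPKM or below in every KO library, and WT replicate 3 (triangle) was the lowest WT library for all 9 members.

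*Stat2* had the largest fall of the 9 members. STAT2 is the interferon-specific member of the family, which joins IRF9 and another STAT in the factor that answers type I interferon. *Stat2* was at 37.1, 41.2 and 20.6 FPKM in WT replicates 1, 2 and 3 and at 4.85, 5.01 and 3.87 FPKM in KO replicates 1, 2 and 3. The lowest WT library, replicate 3, was still well above the highest KO library. The mean went from 32.9 ± 10.9 FPKM in WT to 4.58 ± 0.620 FPKM in KO (SD, n = 3 each), 7.2 times lower in KO. On the scale of log2(FPKM + 0.5), the fold change was -2.67 with an SE of 0.26 (95% interval -3.28 to -2.05, adjusted p = 0.000394), and 0.853% of tested genes had a lower value. The fold change stayed between -2.97 and -2.48 in 18 alternative settings and passed the test in each. *Stat2* is at chr10:128270559-128292849 on the + strand in GENCODE M21 (GRCm38).

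The genes with the profile closest to *Stat2* over the 6 libraries were *Nlrc5*, a transactivator of MHC class I genes, *Gm6545* and *Parp14*, an ADP-ribosyltransferase. Their root mean square distances to the centred *Stat2* profile were 0.13, 0.15 and 0.16 on the log2 scale. *Nlrc5* was at 16.8, 17.8 and 10.4 FPKM in WT and 2.27, 2.69 and 1.74 FPKM in KO. Like *Stat2*, it was lowest in replicate 3 of either group. *Parp14* also stands on the list of *Stat2* targets described further on.

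*Stat6* had the highest mean of the members in both groups, although *Stat2* was above it in 2 of the 3 WT libraries. STAT6 carries the signals of IL-4 and IL-13 and is known for the alternative state of macrophages. It was at 36.3, 36.4 and 28.1 FPKM in WT and 48.2, 45.7 and 42.8 FPKM in KO. Every KO library lay above every WT library. The mean was 33.6 ± 4.77 FPKM in WT and 45.6 ± 2.68 FPKM in KO (n = 3 per group, ± SD), and the log2 fold change was 0.44 with an SE of 0.12 and an adjusted p of 0.0286. The call was lost with median-of-ratios scaling (0.23, adjusted p = 0.177), with upper-quartile scaling (adjusted p = 0.0621), after rescaling to TPM (adjusted p = 0.0683) and with no filter on low values (adjusted p = 0.0592), and it was lost without KO replicate 1 (adjusted p = 0.102) or KO replicate 2 (adjusted p = 0.0864).

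*Stat3*, which acts downstream of the IL-6 family and of the IL-10 receptor, was at 20.1, 20.0 and 15.7 FPKM in WT and 16.5, 16.3 and 14.6 FPKM in KO. WT replicate 3 lay below 2 of the KO libraries, so the groups overlapped. The mean was 18.6 ± 2.51 FPKM in WT and 15.8 ± 1.04 FPKM in KO (SD, n = 3 each), and the log2 fold change of -0.22 (SE 0.12, 95% interval -0.51 to 0.07) did not pass the test (adjusted p = 0.197). The outcome depended on that library and on the scaling. Without WT replicate 3 the value was -0.33 (adjusted p = 0.0194), and with median-of-ratios scaling it was -0.43 (adjusted p = 0.0274).

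*Stat5a* and *Stat5b* encode close paralogs that answer GM-CSF, IL-3 and other growth factors of blood cells. *Stat5b* was at 7.53, 7.90 and 6.36 FPKM in WT and 11.8, 12.1 and 11.3 FPKM in KO, with no overlap. Its mean was 7.26 ± 0.803 FPKM in WT and 11.8 ± 0.404 FPKM in KO (n = 3 per group, ± SD), and the log2 fold change was 0.67 (SE 0.10, adjusted p = 0.00297), and it passed the test in all 18 alternatives. *Stat5a* was at 2.19, 2.37 and 1.93 FPKM in WT and 3.32, 3.04 and 2.99 FPKM in KO. These groups did not overlap either, at a level several times lower than that of *Stat5b*. The mean of *Stat5a* was 2.16 ± 0.224 FPKM in WT and 3.12 ± 0.180 FPKM in KO (n = 3 per group, ± SD), and the log2 fold change was 0.44 (SE 0.11, adjusted p = 0.0192). The *Stat5a* call was lost with median-of-ratios scaling (0.26, adjusted p = 0.103), with quantile normalization (0.20, adjusted p = 0.168), and without KO replicate 1 (adjusted p = 0.0811), KO replicate 2 (adjusted p = 0.0617) or WT replicate 1 (adjusted p = 0.0542).

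The transcripts of the pair share 265 windows of 100 bases, 3.44% of those in *Stat5a* and 4.79% of those in *Stat5b*, so a small share of reads could have been counted for either. *Stat5a* and *Stat3* lie tail to tail on chromosome 11 and their exons overlap by 72 bases on opposite strands. How the counting treated strand is not given in the sources used here. The genes closest in profile to *Stat5b* were *Ebf1*, *Chaf1a* and *Asph*, at distances of 0.02, 0.02 and 0.03 on the log2 scale. *Ebf1*, a B lineage regulator, was at 0.698 to 0.926 FPKM in WT and 1.50 to 1.65 FPKM in KO, and is 1 of the 3 B lineage genes that were tested.

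*Stat4*, best known in T and NK cells where it answers IL-12, was the lowest member in both groups. It was at 0.0998 and 0.212 FPKM in WT replicates 1 and 2, was listed at 0 in WT replicate 3, and was at 0.996, 1.41 and 1.04 FPKM in KO. The depth behind these values was small, about 6, 11 and 0 implied fragments in WT and 53, 86 and 58 in KO. Every KO library was above every WT library. The log2 fold change of 1.46 is a description, since *Stat4* entered the test only through the libraries in which it was high, and it depended on the pseudocount, from 0.96 at a pseudocount of 1 to 2.75 at 0.1. Of the T and NK cell genes, *Cd4* was also higher, at 1.43 to 2.09 FPKM in WT and 5.07 to 6.01 FPKM in KO, with the defining genes *Cd3d*, *Cd3e* and *Cd3g* at no more than 0.045 FPKM in any library.

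The *Stat4* values carry a further limit. *Gm28177*, a transcript annotated on the same strand, shares 1033 of the 3872 exonic bases of *Stat4*, and 18.0% of the 100-base windows of *Stat4* occur in it. It went the other way, at 4.76, 5.39 and 5.81 FPKM in WT and 1.14, 0.510 and 1.03 FPKM in KO. How reads in the shared exons were divided between these genes cannot be seen in FPKM, so the size of the *Stat4* difference is uncertain. The genes closest in profile to *Stat4* were *Pot1b*, *Phka2* and *Kif11*, at distances of 0.07, 0.09 and 0.09 on the log2 scale.

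Among the kinases, *Jak1* and *Jak2* moved in opposite directions. JAK1 serves the receptors of interferons, of the IL-6 family and of the cytokines that share the common gamma chain. *Jak1* was at 33.3, 34.1 and 28.9 FPKM in WT and 45.2, 44.2 and 42.4 FPKM in KO. The groups did not overlap, and the mean was 32.1 ± 2.79 FPKM in WT and 43.9 ± 1.44 FPKM in KO (SD, n = 3 each). The log2 fold change was 0.45 (SE 0.09, adjusted p = 0.00869), which fell short of the threshold only with median-of-ratios scaling (0.24, adjusted p = 0.0775) among 18 alternatives.

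JAK2 serves the receptors of GM-CSF, IL-3, erythropoietin, IL-12 and interferon gamma. *Jak2* was at 15.7, 15.6 and 12.7 FPKM in WT and 9.55, 9.99 and 9.35 FPKM in KO. All WT libraries were higher than all KO libraries. The mean fell from 14.7 ± 1.72 FPKM in WT to 9.63 ± 0.326 FPKM in KO (n = 3 per group, ± SD), and the log2 fold change was -0.57 (SE 0.11, 95% interval -0.83 to -0.32, adjusted p = 0.00621). It passed the test in all 18 alternatives, between -0.78 and -0.52.

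TYK2 works beside JAK1 or JAK2 at the receptors of type I interferon, IL-10 and IL-12. *Tyk2* was at 9.49, 9.28 and 5.46 FPKM in WT and 10.8, 10.6 and 7.91 FPKM in KO. The groups overlapped, since the replicate 3 library was the lowest of either group. The log2 fold change of 0.29 (SE 0.23, 95% interval -0.25 to 0.83) did not pass the test (adjusted p = 0.359). It was 0.05 without WT replicate 3, 0.43 without KO replicate 3 and 0.42 without WT replicate 1, and 0.08 with median-of-ratios scaling. Exons of *Tyk2* share 554 bases with the antisense gene *1700084C06Rik*, which was listed at 0 in 5 libraries and at 0.0746 FPKM in WT replicate 2.

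**Figure D2:**
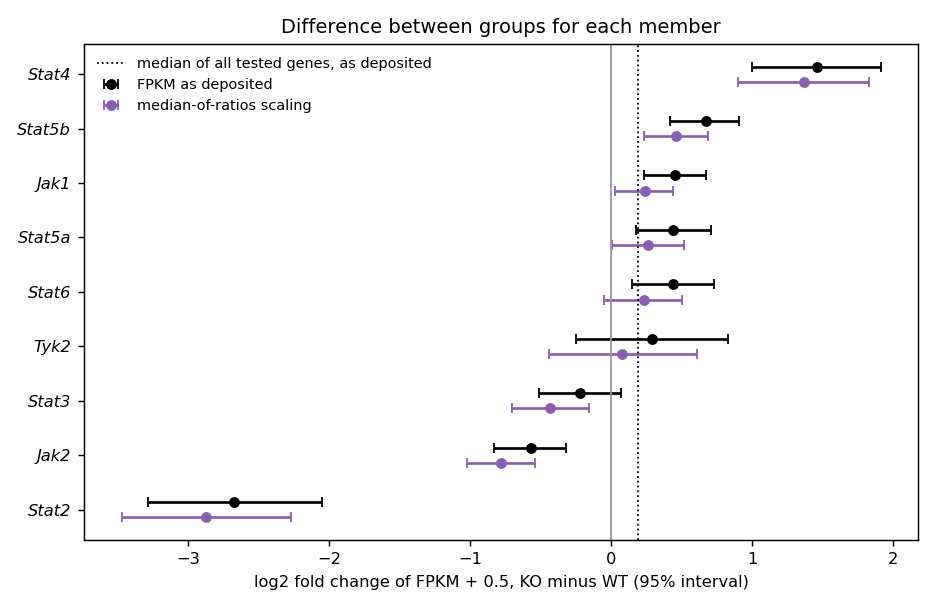
log2 fold change of FPKM + 0.5 (KO minus WT) with its 95% interval for the 9 members, from FPKM as deposited (black) and after median-of-ratios scaling (purple), with the median of all tested genes (0.19) as a dotted line. *Stat2* lay at -2.67, far below the other members, and the intervals of *Stat3* and *Tyk2* as deposited crossed 0.

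The order of levels differed between the groups. In WT the order by mean was *Stat6*, *Stat2*, *Jak1*, *Stat3*, *Jak2*, *Tyk2*, *Stat5b*, *Stat5a* and *Stat4*. The ranges of *Stat6*, *Stat2* and *Jak1* overlapped, as did those of *Stat3* and *Jak2* and those of *Tyk2* and *Stat5b*. In KO the order was *Stat6*, *Jak1*, *Stat3*, *Stat5b*, *Tyk2*, *Jak2*, *Stat2*, *Stat5a* and *Stat4*. Only *Stat6* with *Jak1* and *Tyk2* with *Jak2* overlapped there. *Stat2* thus went from rank 2 to rank 7 of 9.

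Ratios of 2 members within a library do not depend on the scaling between libraries. *Stat2* over *Stat6* was 1.02, 1.13 and 0.730 in WT and 0.101, 0.110 and 0.0902 in KO. RNA of the interferon factor was thus above that of the IL-4 factor in WT replicates 1 and 2, below it in WT replicate 3 and a small fraction of it in the KO libraries, with a difference of -3.24 in the mean log2 ratio. *Stat3* over *Stat6* was 0.553, 0.548 and 0.557 in WT and 0.343, 0.357 and 0.342 in KO, a difference of -0.67 with very little spread within a group. *Jak1* over *Jak2* was 2.12, 2.19 and 2.28 in WT and 4.73, 4.43 and 4.53 in KO, a difference of 1.05.

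*Jak2* over *Tyk2* was 1.66, 1.68 and 2.32 in WT and 0.882, 0.939 and 1.18 in KO, while *Jak1* over *Tyk2* overlapped between the groups (exact permutation p = 0.5). *Stat5a* over *Stat5b* stayed close, at 0.290, 0.301 and 0.303 in WT and 0.281, 0.251 and 0.264 in KO. Of 8 planned ratios 7 did not overlap, each with an exact two-sided permutation p of 0.1, the smallest that 3 against 3 libraries can give (adjusted over 8 ratios, 0.114). Of single genes, 51.9% did not overlap, but that share was not worked out for ratios, which are a different measure. The 7 include *Stat4* over *Stat6* (0.00275, 0.00582 and 0 in WT, 0.0207, 0.0308 and 0.0244 in KO), where *Stat4* had to differ. Several of the ratios share a member, so they are not separate results. *Stat2* over *Irf9*, added after the values were seen, was 4.08, 4.89 and 2.50 in WT and 0.687, 0.738 and 0.613 in KO, so *Stat2* RNA was above that of its partner in each WT library and below it in each KO library.

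**Figure D3:**
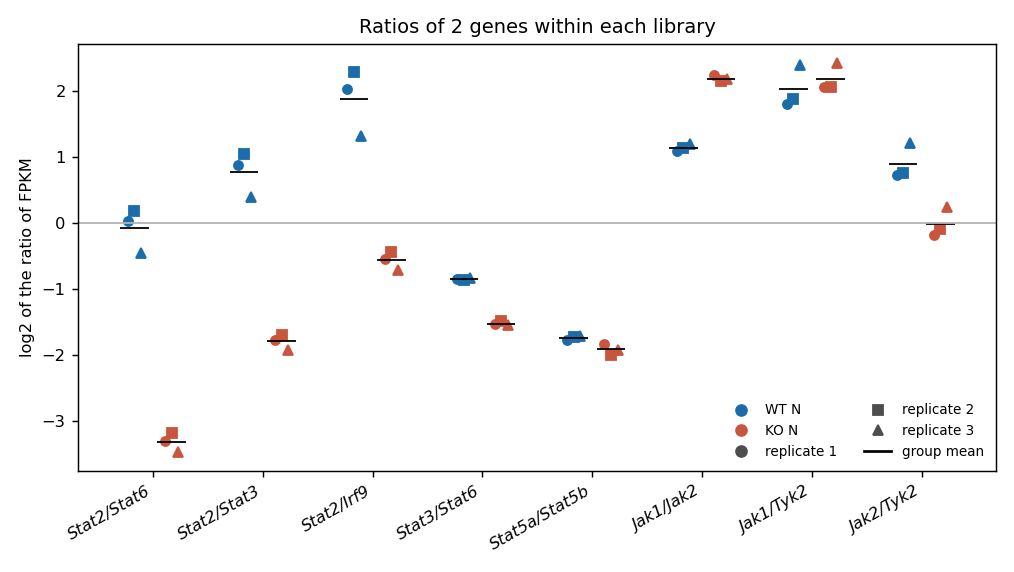
log2 of the ratio of the FPKM of 2 genes within each library, for 7 of the 8 planned ratios and *Stat2* over *Irf9*, with a point per library and a bar at the group mean. *Stat4* over *Stat6* is left out because *Stat4* is listed at 0 in WT replicate 3. Groups stand apart in each ratio shown other than *Jak1* over *Tyk2*.

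As shares of the summed FPKM of the 6 STATs, *Stat2* took 34.1% ± 5.15 in WT and 5.56% ± 0.482 in KO (SD, n = 3 each). *Stat6* went the other way, from 35.9% ± 2.58 to 55.6% ± 0.807, and *Stat5b* from 7.78% ± 0.839 to 14.4% ± 0.494. The share of *Stat3* overlapped between the groups, at 19.8% ± 1.59 and 19.3% ± 0.217. The sum itself was 103, 108 and 72.7 FPKM in WT and 85.7, 83.6 and 76.7 FPKM in KO, and the groups overlapped (exact permutation p = 0.4). Shares in 1 sum are tied, so a fall in *Stat2* raises the rest. Of the summed FPKM of the 3 kinases, *Jak1* held 58.8% ± 2.39 in WT and 69.4% ± 1.49 in KO, and *Jak2* held 26.7% ± 0.270 and 15.2% ± 0.583. The share of *Tyk2* overlapped, at 14.5% ± 2.53 and 15.4% ± 1.84.

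**Figure D4:**
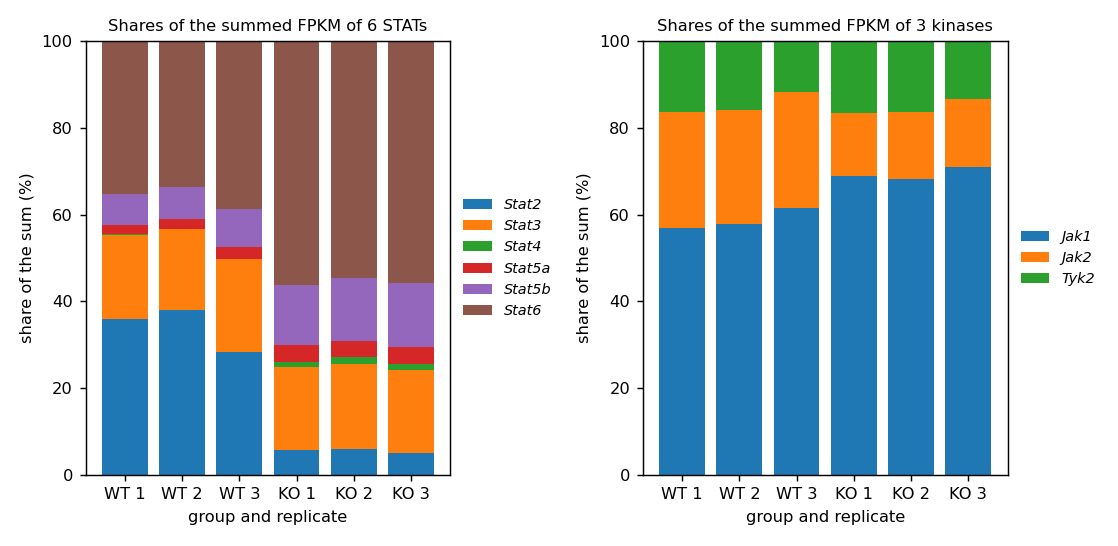
Stacked shares (%) of the summed FPKM of the 6 STATs (left) and of the 3 kinases (right) in each of the 6 libraries. *Stat2* filled 28.3% to 38.1% of the STAT sum in WT and 5.04% to 5.99% in KO, and *Jak2* filled 26.4% to 26.9% of the kinase sum in WT and 14.6% to 15.7% in KO.

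Around the members stood 177 genes on 9 lists drawn from general knowledge, of which 139 were tested, 32 rose and 69 fell in the libraries labelled KO. Over all tested genes 27.1% rose and 10.5% fell, with a median log2 fold change of 0.19, and the counts of each list below are to be read beside these. Some genes are on more than 1 list. Of the genes that rose, *Epor*, *Lifr*, *Il10*, *Il4* and *Batf3* averaged under 0.5 FPKM in WT. They entered the test only through the KO libraries, so their rises are descriptions. Of the genes that fell, *Il12rb1*, *Il6*, *Il11*, *Il12b*, *Cxcl10*, *Mx2*, *Ifi44*, *Saa3*, *Arg1* and *Ccl17* averaged under 0.5 FPKM in KO. These entered only through the WT libraries, so their falls are descriptions too. The partners in interferon signalling were *Irf9*, *Nmi*, *Ifi35*, *Crebbp* and *Ep300*, and of these 3 fell and none rose (median log2 fold change -0.33). *Ifi35* (-2.01 on the log2 scale) and *Nmi* (-1.69), which encode interferon-induced proteins that bind each other, fell most. *Irf9*, the DNA-binding partner of STAT2, was at 9.09, 8.41 and 8.22 FPKM in WT and 7.07, 6.79 and 6.30 FPKM in KO. Its groups did not overlap, but the difference was small (-0.33, adjusted p = 0.0273) and passed the test in 1 of 6 fits with a library left out, with an adjusted p of up to 0.0916. The coactivators *Crebbp* and *Ep300* did not pass it (-0.10 and 0.13, the latter below 0 with median-of-ratios scaling, at -0.07).

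Of 38 receptor genes 26 were tested, with 10 higher and 10 lower (median -0.09). The chains of the type I interferon receptor, *Ifnar1* and *Ifnar2*, did not pass the test (-0.11, adjusted p = 0.621, and 0.09, adjusted p = 0.384). *Ifngr1*, the ligand-binding chain of the interferon gamma receptor, rose from 13.3 ± 2.01 to 54.1 ± 8.93 FPKM (n = 3 per group, ± SD), or 1.98 on the log2 scale (adjusted p = 0.000191). Its other chain, *Ifngr2*, did not pass the test (-0.15, adjusted p = 0.162), though it did with median-of-ratios scaling (-0.36, adjusted p = 0.0133).

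Among the receptors that rose, *Il6ra*, *Il6st* and *Il10ra* lie upstream of STAT3, with *Il6ra* at 1.13 (adjusted p = 0.00228), *Il6st*, the shared signal chain of the IL-6 family, at 0.84 (adjusted p = 0.0286) and *Il10ra* at 1.10 (adjusted p = 0.0321). *Il6st* and *Il10ra* lost the call with median-of-ratios scaling (adjusted p = 0.0713 and 0.0738) and kept it in 4 and 3 of 6 fits with a library left out. *Il10rb*, the other chain of the IL-10 receptor, rose by 0.54 (adjusted p = 0.00123). Its call held with that scaling (0.33, adjusted p = 0.0126) and in 6 of 6 such fits. *Il11ra1* and *Il21r*, which also lie upstream of STAT3, fell (-0.80 and -0.30), the latter in 1 of 6 fits with a library left out and not after rescaling to TPM (adjusted p = 0.102). *Epor*, the erythropoietin receptor, rose by 1.75 from a mean of 0.249 FPKM, a description since it entered the test only through the KO libraries. *Csf3r*, the G-CSF receptor, which is also on the neutrophil list, rose by 1.25. *Il4ra*, the receptor chain upstream of STAT6, did not pass the test, at 43.4 ± 7.23 FPKM in WT and 40.7 ± 2.45 FPKM in KO (SD, n = 3 each). Among the receptors that fell, *Csf2rb* (-1.55, adjusted p = 0.0153) encodes the signal chain for GM-CSF and IL-3, and *Csf2rb2* (-1.45, adjusted p = 0.000374) a chain for IL-3. They are near-identical copies between which reads may be divided, and *Csf2rb* kept its call in 4 of 6 fits with a library left out. *Il7r* fell from 103 ± 1.80 to 37.3 ± 0.487 FPKM (-1.45). *Il12rb1* (-1.43), the shared gamma chain *Il2rg* (-0.88) and *Il13ra1* (-0.75) fell too. The fall of *Il12rb1* is a description, since it entered the test only through the WT libraries.

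Of 28 ligand genes 14 were tested, with 3 higher and 6 lower (median -0.68). That median moved with the setting, to -0.37, -0.32 and -0.34 without WT replicate 1, 2 or 3, to -0.16 with no filter on low values and to -1.54 at a mean of 5 FPKM or more. Of the IL-6 family, *Il11* (-4.03 on the log2 scale), *Il6* (-2.98), *Osm* (-2.77) and *Lif* (-1.54) fell, while *Clcf1* (-0.32) and *Cntf* (0.02) did not pass the test. *Il6* was at 4.17, 5.12 and 3.92 FPKM in WT and at 0.0934, 0.0756 and 0.193 FPKM in KO. *Il12b* was listed at 0 in every KO library and at 0.952 to 1.28 FPKM in WT. The ligands that rose were *Il10* (1.59), *Ebi3*, a subunit of IL-27 and IL-35 (1.51), and *Il4* (0.60). *Il10* and *Il4* entered the test only through the KO libraries, and *Il6*, *Il11* and *Il12b* only through the WT libraries. These calls are therefore descriptions. *Il10* stayed low, at 0.0424 to 0.185 FPKM in WT and 1.23 to 1.41 FPKM in KO. Interferon genes *Ifnb1* and *Ifng* were under the filter.

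Of 24 inhibitor genes 23 were tested, with 7 higher and 5 lower (median 0.13, with 0.01 without WT replicate 3 and -0.08 with median-of-ratios scaling). The genes that fell are known to be induced by cytokine signals. *Usp18*, which restrains the type I interferon receptor, fell by 4.37, as did *Socs1* (-2.55) and *Socs3* (-1.78), and *Cish* (-0.83) and *Socs2* (-0.55), known STAT5 targets. The *Socs2* call held in 2 of 6 fits with a library left out. *Socs3* was at 32.7, 29.6 and 27.7 FPKM in WT and 7.94, 8.45 and 8.72 FPKM in KO. The genes that rose included *Pdlim2*, a ubiquitin ligase for STAT proteins (1.37), and phosphatases, *Dusp22* (1.21) and *Ptpn6*, which encodes SHP-1 (0.67, adjusted p = 0.00134).

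**Figure D5:**
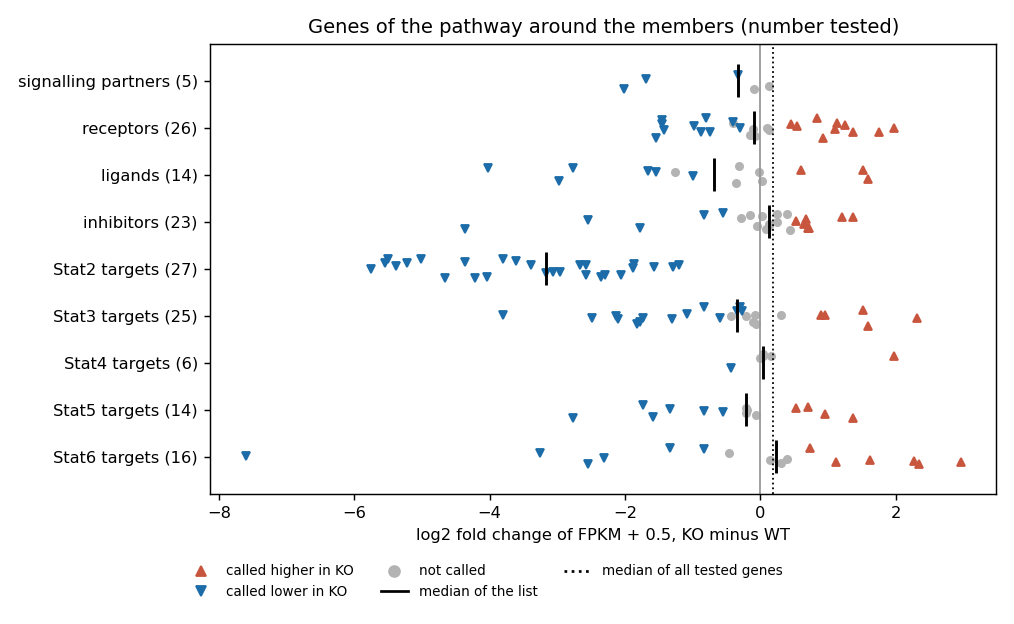
log2 fold change of FPKM + 0.5 (KO minus WT) of each tested gene on the 9 pathway lists, with genes called higher (red), called lower (blue) and not called (grey), the median of each list (bar) and that of all tested genes (dotted, 0.19). All 27 *Stat2* targets fall left of 0, while the other target lists spread to both sides.

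Known targets differed from list to list. All 27 listed targets of the STAT2 complex were tested and fell, with a median of -3.17. *Cxcl10*, *Mx2* and *Ifi44* among them entered the test only through the WT libraries and so had to differ. The fall of interferon-stimulated genes was already known from these data when the list was drawn up, so it is not independent of the *Stat2* result. The antiviral effectors *Rsad2* (-5.75), *Ifit2* (-5.55) and *Ifit1* (-5.51) fell most on the list. The smallest fall was that of *Trim25* (-1.20), from 61.3 ± 6.14 to 26.4 ± 2.14 FPKM (SD, n = 3 each).

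Of 25 *Stat3* targets 5 rose and 14 fell (median -0.35). *Saa3*, an acute phase gene, fell by 3.81, *Vegfa*, the angiogenic factor, fell by 2.49, and *Nfil3*, a transcription repressor, fell by 2.14. The fall of *Saa3* is a description, since it entered the test only through the WT libraries. *Lcn2*, which is also on the neutrophil list, rose by 2.31 and *Cebpd* by 1.51. Of 16 *Stat5* targets 14 were tested, with 4 higher and 6 lower (median -0.21). *Osm* (-2.77), *Pim1*, a survival kinase (-1.74), and *Id1* (-1.59) fell. *Ccnd1* (0.96), *Ccnd2* (0.71) and *Igf1* (0.53) rose, the last from 37.5 ± 1.96 to 54.4 ± 2.26 FPKM (SD, n = 3 each). *Ccnd2* lost its call with median-of-ratios scaling (adjusted p = 0.0536) and kept it in 4 of 6 fits with a library left out.

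Of 24 *Stat6* targets 16 were tested, with 6 higher and 6 lower (median 0.23, with -0.05 after rescaling to TPM, -0.12 with no filter and -0.16 at a mean of 1 FPKM or more). *Arg1*, the arginase of alternatively activated macrophages, was at 166, 158 and 176 FPKM in WT and 0.329, 0.409 and 0.338 FPKM in KO, a log2 fold change of -7.60 that was the largest in absolute size on any of the 9 lists. That value is a description, since *Arg1* entered the test only through the WT libraries. *Tgm2* fell by 3.25. The mannose receptor *Mrc1* was at 28.3, 29.4 and 26.3 FPKM in WT and 225, 223 and 213 FPKM in KO, and *Clec10a* and *Pparg* rose by 2.34 and 2.27. Genes known for the same macrophage state thus moved to both sides. Of 10 *Stat4* targets 6 were tested, *Ifngr1* rose, *Gadd45b* fell (-0.43, adjusted p = 0.0111) and 4 did not pass the test (median 0.04, and -0.13 with median-of-ratios scaling).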

How the data were processed

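RNA-seq of 6 BMDM libraries (3 labelled WT, 3 labelled KO) was used. The table that the authors deposited holds FPKM for each gene in each library and no counts. The submitters' processing notes name fastp 0.17.1, HISAT2 2.1.0, DESeq2 1.18.1 and R 3.4.3, while the genome build, the annotation and the strand setting are not given in the sources used here. The labels and the methods name different extraction reagents, library kits and sequencers. Symbols were matched to GENCODE M21 (GRCm38) for 55154 identifiers (99.7%), from which positions were taken.

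log2(FPKM + 0.5) was tested in the 13367 genes that averaged 0.5 FPKM or more with limma 3.58.1 in R 4.3.3 (eBayes with trend, two-sided, all 6 libraries, no covariate), with Benjamini-Hochberg adjustment over these genes and calls at an adjusted p under 0.05. The study's own test, DESeq2, needs counts, which FPKM is not. Ratios and shares within a library were compared by exact permutation. The fit was tested on simulated data with genes changed by known amounts. Whole fragments could not be recovered, since 40.1% to 43.5% of low values came within 0.1 of whole multiples of the step, so the implied depth is approximate and was used only to describe low values.

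The members, the lists and the alternatives were chosen with earlier results of these data known. All members are named, and of each list the called genes with the largest changes and an average of 1 FPKM or more, other called genes and genes with a textbook role beside a member. *Gm28177* and *1700084C06Rik*, which overlap members, were named after their values were seen. The genes most alike in profile were sought for the 3 members with the largest absolute log2 fold change, among genes that averaged 1 FPKM or more. Profiles were of log2(FPKM + 0.5), so likeness between genes with values near 0 depends on the amount added. Nothing says that the libraries came from separate cultures, so p-values measure only the spread between these libraries, which may be technical. Other genes of these families are not reported here. Alternatives were pseudocounts of 0.1 and 1, other filters, 4 scalings, a robust variance, a replicate block, left-out libraries and other thresholds. Python 3.11.15, pandas 2.3.3, numpy 2.4.6 and matplotlib 3.10.9 were used.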

Additional observations from a re-analysis of the deposited data

How the results depend on the processing

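*Stat2*, *Jak2* and *Stat5b* passed the test in each of the 18 alternatives in which they were refitted, and no member changed direction. *Stat4* was tested in 15 of them, and its calls say nothing of stability, since it entered the test only through the KO libraries. Against 5 members higher and 2 lower as reported, median-of-ratios scaling gave 2 higher and 3 lower, a filter at a mean of 5 FPKM gave 3 higher (it drops *Stat4* and *Stat5a*), an adjusted p under 0.01 gave 3 higher, and the study's threshold (fold change above 2 and unadjusted p under 0.05) gave 1 higher and 1 lower. With a library left out, the members called higher numbered 2 to 5. They numbered 3 without KO replicate 1 and 2 without KO replicate 2, where *Stat4* was no longer tested, and *Stat3* was called lower without WT replicate 3. Of the genes on the pathway lists, 32 were higher as reported and 17 at the study's threshold.

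Both groups carry replicate numbers 1 to 3, and neither the labels nor the methods say that a number marks a shared batch. Deviations from the group means correlated at 0.12, 0.04 and 0.26 between libraries of the same number, and replicates 1 and 2 did not each correlate best with their own number. Those numbered 3 did. WT replicate 3 stood at -0.17 and -0.14 with KO replicates 1 and 2, and KO replicate 3 at -0.23 and -0.13 with WT replicates 1 and 2. With the libraries numbered 3 of both groups left out, *Stat3* was called lower (-0.28, adjusted p = 0.0116). With a replicate block, 5 members were higher and 2 lower, the calls of all 9 members stayed as they were, and the adjusted p of *Stat3* was 0.0704. The shift of the median gene by scaling ran from -0.00 (median-of-ratios) to 0.22 (TPM). Depth limits *Stat4* in particular, and the depth behind every value is approximate.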
